A study of Sus scrofa with 6 samples.

Results

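Smooth muscle contractile genes were followed through 3 stages of ovarian follicle growth in the pig. The 8 genes were ACTG2, ACTA2, CNN1, TAGLN, TPM2, MYH11, MYL9 and DES, and every probe set that the platform annotation gives to 1 of these symbols alone was taken. This gave 12 probe sets for 7 of the 8 genes, among 23999 probe sets on the array. No probe set is annotated to MYH11, the smooth muscle myosin heavy chain, alone, so that gene was not analysed here. The follicles came from ovaries of prepubertal gilts, young female pigs before puberty, and had been sorted by their morphology and diameter into stages titled primordial, middle and last. Each stage had 2 single-channel Affymetrix arrays titled as biological replicates, which makes 6 arrays. No treatment, breed, age in days or follicle diameter is given, and it is not said if replicates are of separate animals or how many follicles were pooled, so the spread behind each p-value may be technical.

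Smooth muscle contracts when myosin filaments pull on actin filaments that are anchored to dense bodies and to the cell membrane. Calcium bound to calmodulin activates a kinase that phosphorylates the myosin regulatory light chain, and a myosin phosphatase reverses this. Calponin, caldesmon and tropomyosin lie along the actin filament, and desmin forms the intermediate filaments that link the dense bodies. In the ovary, smooth muscle cells occur in the walls of blood vessels and in the theca externa, the outer layer of the theca that surrounds a growing follicle.

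Stages follow the titles, although another field of the labels describes all 6 as primordial. The marker signals did not follow the titles in every respect. The summed signal of 11 oocyte markers was 482 to 495 on the arrays titled primordial, 20064 to 21821 on the middle arrays and 888 to 907 on the last arrays. The summed signal of 11 immune cell markers was 32638 to 38004 on the arrays titled primordial, 3042 to 3967 on the middle arrays and 4036 to 10767 on the last arrays. The first stage is therefore called "the arrays titled primordial" throughout. Pearson's r between log2 signals across all probe sets was 0.964 to 0.972 within a stage and 0.862 to 0.935 between stages. Median signals lay between 119.3 and 169.9, and the number of arrays limits the precision.

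Of the 12 probe sets, 10 passed the filter, which dropped the dimmest 40% of the array by mean signal and left none under 91.3. The others, Ssc.20571.2.S1_at of TPM2 and Ssc.13296.1.A1_at of DES, were fitted without the filter. Ssc.24.1.S1_at of DES passed only through the last arrays, since its mean signal over the other arrays was 39.8. A difference is one of mean log2(signal + 16), given ± its standard error (n = 2 per stage). Folds come from that scale too, so those of dim probe sets are understated. A probe set is called when its limma p, adjusted by Benjamini-Hochberg over all 14399 probe sets tested, is under 0.05. These are signals of whole follicles, in which fewer cells of a type and less RNA per cell cannot be told apart.

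**Figure D1:**
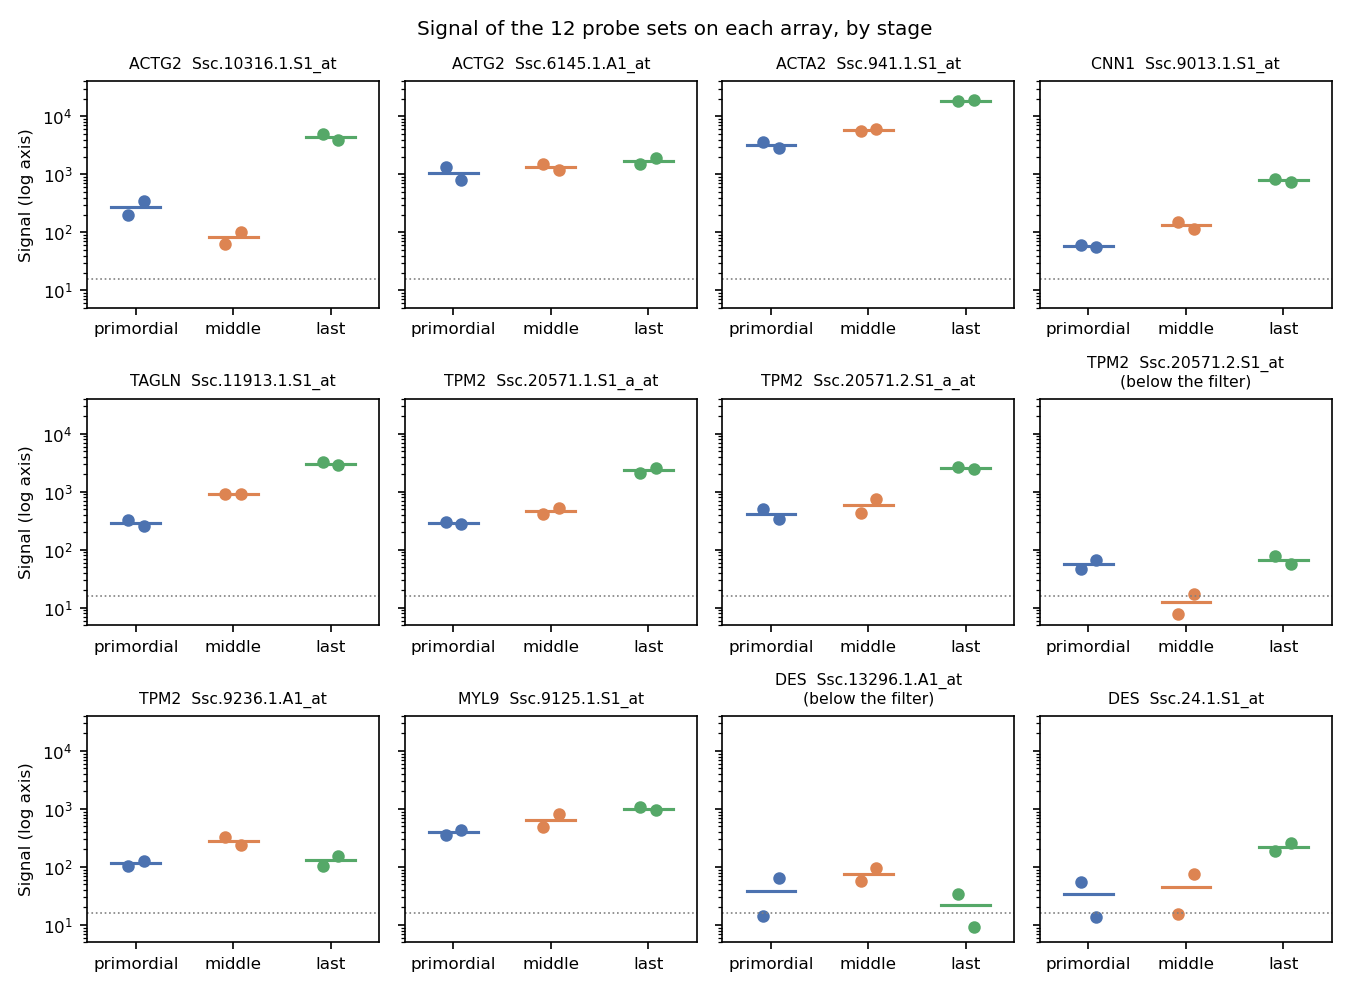
Signal of each of the 12 probe sets (log axis) on the 6 arrays. Points are arrays, bars are stage means of 2 arrays, and the dotted line is a signal of 16. The last arrays lie above all other arrays for Ssc.10316.1.S1_at of ACTG2 and for ACTA2, CNN1, TAGLN and MYL9, for both TPM2 probe sets ending in _a_at, and for Ssc.24.1.S1_at of DES.

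The contractile genes were brightest on the last arrays. The brightest probe sets of ACTG2, ACTA2, CNN1, TAGLN and TPM2 were higher in the last arrays than in the middle arrays, by 3.21-fold for ACTA2 to 46.5-fold for ACTG2, and these 5 genes and MYL9 were higher in the last arrays than in those titled primordial. DES was also brightest there, but its tested probe set passed the filter only through those arrays, and without the filter its last minus middle difference was not called (limma adjusted p = 0.0668). The step between the arrays titled primordial and the middle arrays was smaller and mixed in direction, with TAGLN 3.03-fold higher and ACTG2 2.9-fold lower. Probe sets of the same gene disagreed for ACTG2, TPM2 and DES. That of ACTG2 taken here, Ssc.10316.1.S1_at, was its brightest only through the last arrays. Without them its mean signal was 178.8, against 1204.9 for Ssc.6145.1.A1_at, whose last minus middle difference was not called.

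The actins form the thin filament. ACTG2 encodes smooth muscle gamma actin, an isoform best known from the gut and other visceral muscle. Its probe set Ssc.10316.1.S1_at had signals of 196.3 and 354.1 on the arrays titled primordial, 63.6 and 101 on those titled middle, and 5024.6 and 3972 on those titled last. The 3 stages did not overlap, and the middle arrays were the dimmest. The last arrays were higher than the middle arrays by 5.54 ± 0.31 (limma adjusted p = 1.14e-05) and higher than the arrays titled primordial by 4 ± 0.31 (adjusted p = 5.95e-05), or 16-fold. The middle arrays were lower than the arrays titled primordial, at -1.54 ± 0.31 (adjusted p = 0.00337).

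The other ACTG2 probe set, Ssc.6145.1.A1_at, had 1321.9 and 802.5 on the arrays titled primordial, 1501.7 and 1193.3 on those titled middle, and 1487.3 and 1902.9 on those titled last. Its last and middle arrays overlapped, and no pairwise difference was called. The last minus middle difference was 0.33 ± 0.27, with a 95% confidence interval of -0.27 to 0.92 and a limma adjusted p of 0.432, and last minus primordial was 0.70 ± 0.27 (adjusted p = 0.0706, and 0.0327 without primordial replicate 1). Taken on the same array, Ssc.10316.1.S1_at minus Ssc.6145.1.A1_at averaged -1.90 on the arrays titled primordial, -3.81 on the middle arrays and 1.40 on the last arrays, so the distance between the probe sets was not the same at each stage.

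ACTA2 encodes smooth muscle alpha actin, the isoform of vascular smooth muscle and of myofibroblasts. Its probe set Ssc.941.1.S1_at had 3658.7 and 2823.3 on the arrays titled primordial, 5535.6 and 6175.2 on those titled middle, and 18296.7 and 19322.6 on those titled last. The stages stepped upward without overlap. The last arrays were higher than the middle arrays by 1.68 ± 0.16 (limma adjusted p = 0.000216) and than the arrays titled primordial by 2.54 ± 0.16 (adjusted p = 2.43e-05). The middle arrays were higher than the arrays titled primordial by 0.86 ± 0.16 (adjusted p = 0.00247). With each array centred on its median this last difference was 0.45 and the call was lost (adjusted p = 0.0569).

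CNN1 and TAGLN encode actin-binding proteins of differentiated smooth muscle. CNN1, calponin, which dampens the actomyosin ATPase, had 61.6 and 56.3 on the arrays titled primordial, 149.5 and 115.9 on those titled middle, and 846.1 and 754.2 on those titled last (Ssc.9013.1.S1_at). TAGLN, transgelin or SM22, an early marker of the smooth muscle lineage, had 328.1 and 255.1, then 896.4 and 920.4, then 3249.6 and 2853.5 in the same order of stages (Ssc.11913.1.S1_at). Neither gene's stages overlapped, and the order of the stages was that of ACTA2.

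CNN1 was higher in the last arrays than in the middle arrays by 2.46 ± 0.26 (limma adjusted p = 0.000328) and than in the arrays titled primordial by 3.44 ± 0.26 (adjusted p = 5.03e-05), or 10.9-fold. TAGLN was higher by 1.73 ± 0.21 (adjusted p = 0.000687) and by 3.33 ± 0.21 (adjusted p = 2.25e-05) in the same comparisons. Between the middle arrays and those titled primordial TAGLN differed by 1.6 ± 0.21 (adjusted p = 0.000307), about as much as between last and middle, and CNN1 by 0.98 ± 0.26 (adjusted p = 0.0123). The CNN1 call of this first step was lost with each array centred on its median (0.57, adjusted p = 0.105), with quantile normalization (0.56, 0.104), without primordial replicate 2 (0.93, 0.0541) and without middle replicate 1 (0.82, 0.0808).

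TPM2 encodes beta tropomyosin, a coiled coil that lies along the actin filament. The gene makes muscle and non-muscle transcripts by alternative splicing, and it had 4 probe sets. Ssc.20571.1.S1_a_at had signals of 295.4 and 277.3 on the arrays titled primordial, 412.3 and 516 on those titled middle, and 2083.3 and 2611 on those titled last. Ssc.20571.2.S1_a_at had 503.7 and 334 on the arrays titled primordial, 422 and 754.1 on those titled middle, and 2645.7 and 2496 on those titled last. The ending _a_at marks a probe set whose probes match more than 1 transcript of a gene. For both of these the last arrays stood clear of the other 4, and the second overlapped between the first stages. The last arrays were higher than the middle arrays by 2.30 ± 0.22 (limma adjusted p = 0.00019) on Ssc.20571.1.S1_a_at and by 2.15 ± 0.30 (adjusted p = 0.00152) on Ssc.20571.2.S1_a_at, and than the arrays titled primordial by 2.96 ± 0.22 and 2.60 ± 0.30. The middle arrays were higher than the arrays titled primordial by 0.66 ± 0.22 on Ssc.20571.1.S1_a_at (limma adjusted p = 0.0334), a call lost under 5 of 15 alternatives, and Ssc.20571.2.S1_a_at had 0.45 ± 0.30 in that comparison and was not called (adjusted p = 0.245).

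The remaining TPM2 probe sets behaved differently. Ssc.9236.1.A1_at had 105.6 and 124.5 on the arrays titled primordial, 324.9 and 238.7 on those titled middle, and 105.6 and 153.4 on those titled last. It was highest on the middle arrays, which did not overlap the other stages. The last arrays were lower than the middle arrays, at -1.04 ± 0.30 (limma adjusted p = 0.0435), and the middle arrays were higher than those titled primordial by 1.17 ± 0.30 (adjusted p = 0.0109). The first of these calls was lost under 10 of 14 alternatives, which moved its adjusted p between 0.0353 and 0.266, and last minus primordial was 0.13 ± 0.30 (adjusted p = 0.761).

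Ssc.20571.2.S1_at, which has the same representative sequence entry as Ssc.20571.2.S1_a_at, was below the filter. It had 47.3 and 67.5 on the arrays titled primordial, 7.7 and 17.1 on those titled middle, and 76.9 and 57.6 on those titled last, so the middle arrays lay at or near the signal of 16. Without the filter the last arrays were higher than the middle arrays by 1.56 ± 0.39 (limma adjusted p = 0.0439, lost under 9 of 13 alternatives), and the middle arrays were lower than those titled primordial, at -1.38 ± 0.39 (adjusted p = 0.0295, lost under 4 of 13). Without the filter 8.78% of 23999 probe sets were called in last minus middle, 29.3% in middle minus primordial and 17.4% in last minus primordial.

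On each array the distance between the TPM2 probe sets shows the same disagreement. Ssc.20571.1.S1_a_at minus Ssc.20571.2.S1_a_at lay between -0.74 and 0.06 on all 6 arrays. Ssc.20571.1.S1_a_at minus Ssc.9236.1.A1_at was 1.36 and 1.06 on the arrays titled primordial, 0.33 and 1.06 on those titled middle, and 4.11 and 3.95 on those titled last. The pair ending in _a_at thus kept together through the stages, while the distance to Ssc.9236.1.A1_at was wider on the last arrays than on any other. Which transcripts each probe set detects was not tested.

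**Figure D2:**
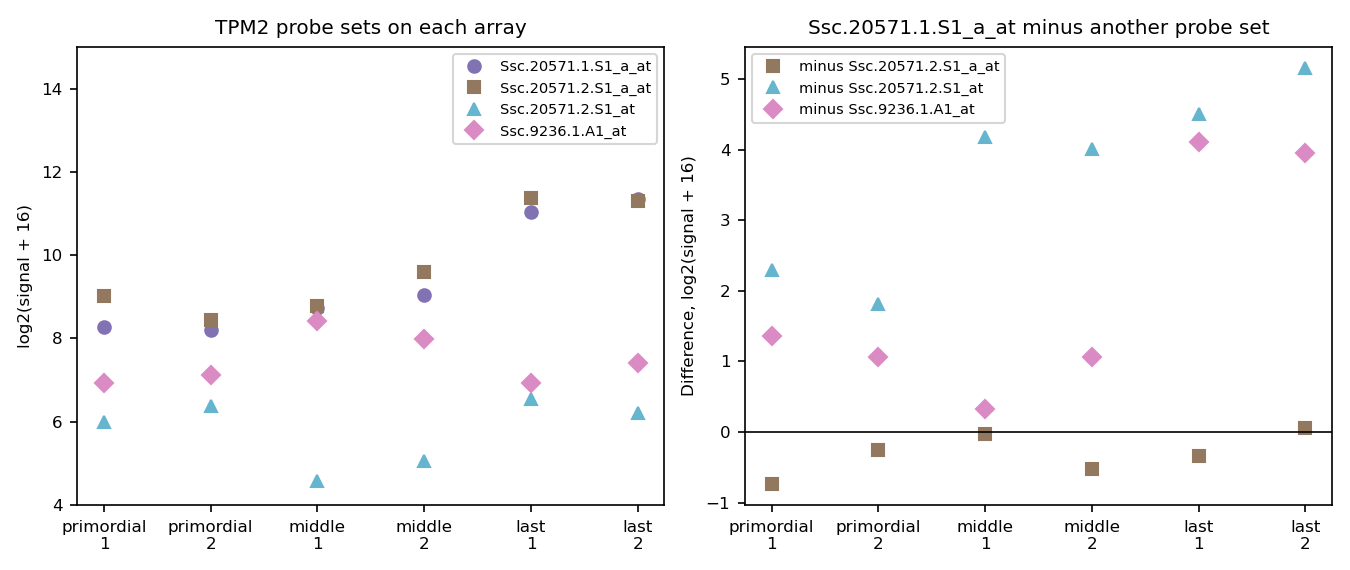
Left, log2(signal + 16) of the 4 TPM2 probe sets on each of the 6 arrays; right, the difference between Ssc.20571.1.S1_a_at and each of the others on the same array. The probe sets ending in _a_at differ by -0.74 to 0.06, and the distance to Ssc.9236.1.A1_at is 4.11 and 3.95 on the last arrays against 1.36 or less on the others.

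MYL9 encodes the regulatory light chain whose phosphorylation starts contraction in smooth muscle. Its signals were 360 and 430.8 on the arrays titled primordial, 490.6 and 810.4 on those titled middle, and 1065.9 and 957.3 on those titled last (Ssc.9125.1.S1_at). The stages did not overlap, but the middle arrays differed from each other more than the last arrays did. Last minus primordial was called, at 1.32 ± 0.26 (limma adjusted p = 0.00513), or 2.5-fold. The 2 smaller steps were not called, at 0.67 ± 0.26 for last minus middle (adjusted p = 0.114, 95% confidence interval 0.08 to 1.26) and 0.66 ± 0.26 for middle minus primordial (adjusted p = 0.064). Without middle replicate 1 middle minus primordial was 1.01 and was called (adjusted p = 0.0252).

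DES encodes desmin, the intermediate filament protein of all muscle types, and was dim. Ssc.24.1.S1_at had 55.7 and 13.9 on the arrays titled primordial, 15.2 and 74.6 on those titled middle, and 186.6 and 255.3 on those titled last. The last arrays were the brightest, and the replicates of the other stages differed widely and overlapped. Last minus middle was 2.14 ± 0.60 (limma adjusted p = 0.0378) and last minus primordial 2.34 ± 0.60 (adjusted p = 0.016). The first call was lost under 6 of 14 alternatives, among them without middle replicate 1 (1.37, adjusted p = 0.247), without last replicate 1 (2.35, 0.0862), without last replicate 2 (1.93, 0.151) and without the filter (0.0668). The second was lost without primordial replicate 2 (1.71, 0.0969) and without last replicate 2 (2.13, 0.076).

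The other DES probe set, Ssc.13296.1.A1_at, was below the filter, with 14 and 63.9 on the arrays titled primordial, 56.2 and 96.8 on those titled middle, and 34.3 and 9.4 on those titled last. It was lowest on the last arrays, where Ssc.24.1.S1_at was highest. Fitted without the filter, no difference was called (limma adjusted p = 0.196 for last minus middle, at -1.34 ± 0.57).

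**Figure D3:**
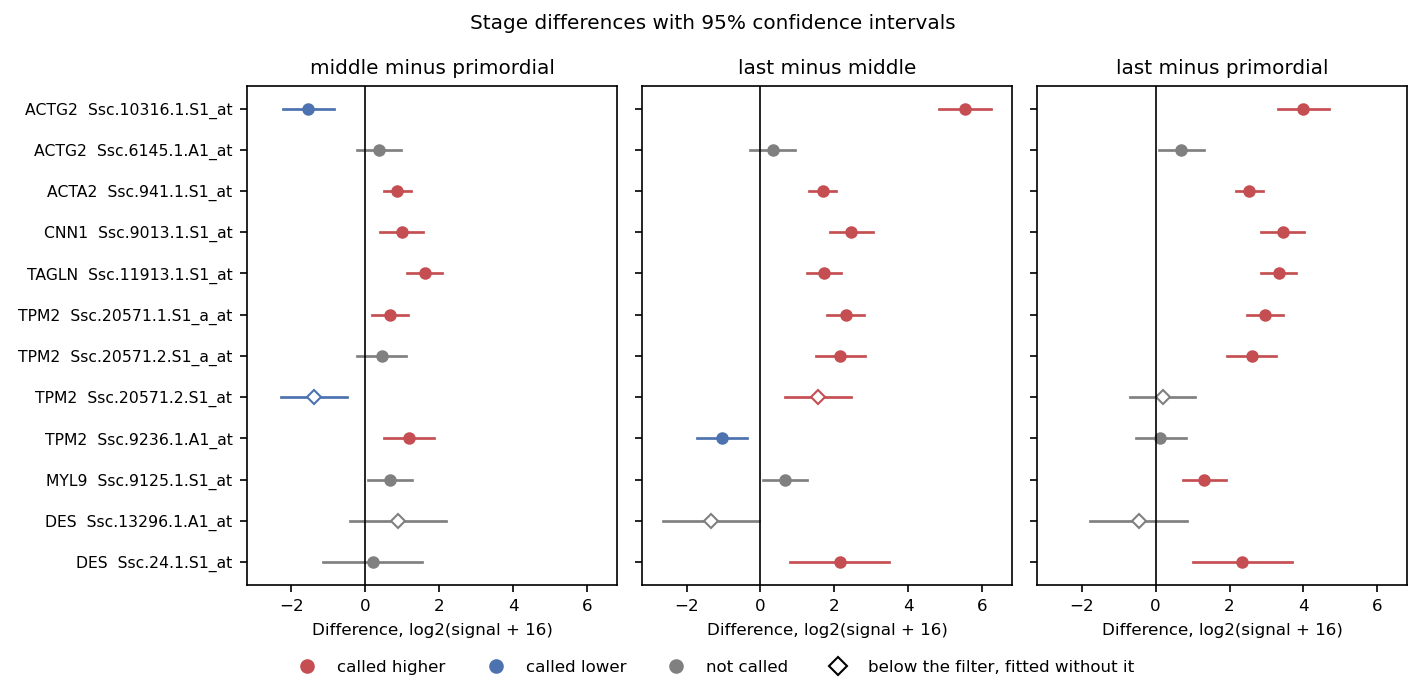
Stage differences in log2(signal + 16) of the 12 probe sets, with 95% confidence intervals of the limma fit (n = 2 arrays per stage). Filled points passed the filter and open diamonds were fitted without it; red is called higher, blue called lower and grey not called. Ssc.10316.1.S1_at of ACTG2 has the largest last minus middle difference, at 5.54, and is lower in middle minus primordial, at -1.54.

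Counted over the probe sets that passed the filter, 7 of 10 were called higher and 1 lower in last minus middle, where 17.2% of all 14399 probe sets were called, 7.29% higher and 9.94% lower. The median difference of the 10 was 1.93, against -0.07 over all probe sets tested. Leaving out Ssc.24.1.S1_at of DES, which passed the filter only through its high last arrays, a count added after the values were seen, 6 of 9 were called higher and 1 lower, with a median of 1.73. In last minus primordial 8 of 10 were called higher and the other 2 were not called, where 33.2% of all probe sets were called, 19.8% higher and 13.4% lower; the medians were 2.57 for the 10 and 0.14 for all, and without DES 7 of 9 were called higher. In middle minus primordial 5 of 10 were called higher and 1 lower, where 47.4% of all were called, 29.7% higher and 17.7% lower, with medians of 0.66 and 0.22. Centring the arrays on their medians left 2 of the 10 called in that comparison, ACTG2 lower and TAGLN higher. The members were chosen with results of these data known, so these counts describe them and test nothing.

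The members also differed among themselves. The 95% confidence interval of ACTG2 in last minus middle, 4.84 to 6.24 on Ssc.10316.1.S1_at, lay above the interval of each of the other 11 probe sets, of which the highest ended at 3.48. In middle minus primordial its interval, -2.24 to -0.84, lay below 0, while those of ACTA2 (0.49 to 1.23), CNN1 (0.40 to 1.56) and TAGLN (1.13 to 2.06) lay above it. The differences between genes were not themselves tested. Over the 6 arrays, Pearson's r of log2(signal + 16) between ACTA2 and CNN1 was 0.988, between ACTA2 and TAGLN 0.984 and between ACTA2 and Ssc.20571.1.S1_a_at of TPM2 0.987. It was 0.799 between ACTA2 and Ssc.10316.1.S1_at of ACTG2, and -0.089 between ACTA2 and Ssc.9236.1.A1_at of TPM2. These describe 6 points that share their arrays and fall into 3 stages.

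The 3 probe sets of these genes whose names carry A1 where the other 9 carry S1 were Ssc.6145.1.A1_at of ACTG2, Ssc.9236.1.A1_at of TPM2 and Ssc.13296.1.A1_at of DES. None of the 3 was called higher in the last arrays against either other stage. Each has a sister probe set with S1 in its name that was, although for DES the last minus middle call was lost without the filter. This was noticed after the values had been seen. Among all probe sets tested, 6.17% of those with A and 8.18% of those with S in that place were called higher between last and middle arrays, 23% and 17.4% in last minus primordial, and 37.1% and 23.9% in middle minus primordial. The labels and files do not say what the letter stands for.

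The genes whose profile over the 6 arrays was most like the contractile genes were of several kinds, with TPM1 and PPP1R14A from the contractile apparatus. Likeness was Pearson's r with the mean standardised profile of the 7 genes, over 2445 probe sets with 1 symbol whose stage means spanned at least 1. The profile took the brightest tested probe set of each. For ACTG2 it was the brightest only through the last arrays, and that of DES passed the filter only through them. The ranking thus favours genes that are high on the last arrays. Every other gene was ranked by its most alike probe set. For TPM1, STAR and MCAM this was not the brightest, which the lists below use. TPM1, alpha tropomyosin, ranked first (Ssc.13956.2.S1_a_at, r = 0.997), with signals of 333.5 and 277.1 on the arrays titled primordial, 379.5 and 614.5 on those titled middle, and 1601.7 and 1422.7 on those titled last. PPP1R14A, an inhibitor of myosin phosphatase in smooth muscle, ranked 9 (r = 0.977), and MCAM, an adhesion molecule of pericytes and endothelium, ranked 7 (r = 0.980). STAR, the mitochondrial cholesterol importer of steroid-making cells, and the theca enzyme CYP17A1, which makes androgens, ranked 2 and 6 (r = 0.989 and 0.980). The others were FAM198B, CEP55, COL5A1, MAP1A and DLL4, at r = 0.976 to 0.987. The 5 genes most like Ssc.10316.1.S1_at of ACTG2 alone were CFL2, a muscle cofilin, PAPSS2, FBLN1, FDX1 and RPLP0, at r = 0.985 to 0.995. With 6 points in 3 stages many genes reach such values.

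Over all 5432 genes tested, at 1 probe set each, 8.8% were called higher and 7.23% lower in last minus middle, with a median of 0.02. In last minus primordial these shares were 17.2% and 15.8%, and in middle minus primordial 22.9% and 22.5%. The gene lists that follow are to be read against these shares. Of 15 genes that regulate contraction 9 were tested, and 2 of them (22.2%) were called higher in last minus middle, with the rest not called and a median of 0.33. PPP1R14A was higher by 1.56 ± 0.42 (limma adjusted p = 0.0327) and RGS2, which ends signalling through Gq-coupled receptors, by 0.97 ± 0.26 (adjusted p = 0.031). The small GTPase RHOA and CALD1, caldesmon, had 0.42 ± 0.18 and 0.62 ± 0.28 and were not called. In last minus primordial 5 of the 9 (55.6%) were called higher, CALD1 by 1.97 ± 0.28 among them, and RHOA was lower, at -1.14 ± 0.18. The kinase of the light chain, MYLK, looked at after its values were seen, was below the filter, with 41.8 at most. No regulator was called in last minus middle without middle replicate 1, without last replicate 1, without last replicate 2 or without the filter, and 1 was called without middle replicate 2.

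Of 19 genes on the array for proteins of dense bodies, thin filaments and adhesions 17 were tested. Of these 7 were called higher on the last arrays than on the middle arrays (41.2%, against 8.8% of all genes). The rest were not called, and the median was 0.42. PDLIM7, an actin-associated PDZ and LIM protein, was higher by 1.70 ± 0.25 (limma adjusted p = 0.00226), the fibronectin receptor subunit ITGA5 by 1.69 ± 0.25 and CSRP2, a LIM protein of smooth muscle, by 1.6 ± 0.27. TPM1, ITGB1 and FLNA differed by 0.82 ± 0.20, 0.57 ± 0.15 and 0.78 ± 0.20. The count was 3 without middle replicate 1, 4 without last replicate 1 and 3 without an intensity trend. In last minus primordial 3 of 17 were called higher and 3 lower, 17.6% each, which is near the 17.2% and 15.8% of all genes. In middle minus primordial 7 were called lower (41.2%, against 22.5% of all genes), ITGA5 at -2.87 ± 0.25 and FLNA at -1.41 ± 0.20 among them. The 2 called higher (11.8%, against 22.9%) were FHL2 at 1.76 ± 0.30 and CNN2 at 0.75 ± 0.26. Fewer were called lower without middle replicate 1 or without primordial replicate 1, and 11 were after centring the arrays.

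Of the paralogs, the cytoplasmic actins ACTB and ACTG1 were looked at after their values were seen. ACTB had signals of 28887.1 and 30655.7 on the arrays titled primordial, 29390.4 and 29295.2 on those titled middle, and 25849 and 31123.8 on those titled last, and its last minus middle difference was -0.05 ± 0.12 (limma adjusted p = 0.816). ACTG1 had 0.25 ± 0.12 in the same comparison (adjusted p = 0.184). It was lower in middle minus primordial, at -0.71 ± 0.12 (limma adjusted p = 0.00119), and in last minus primordial, at -0.46 ± 0.12 (adjusted p = 0.0159). ACTB was called in neither. In last minus middle the tropomyosins TPM1, TPM4 and TPM3 were the only 3 of 11 tested paralogs called higher (27.3%, against 8.8% of all genes), by 0.82 ± 0.20, 0.57 ± 0.16 and 0.62 ± 0.18. That count was 0 without middle replicate 1, without last replicate 1, with quantile normalization and without an intensity trend, 1 without the filter, and 5 after centring the arrays. Of 20 genes on a list of striated muscle 3 passed the filter, of which DES and TPM3 are shared with the lists above. The third, the troponin gene TNNI3, was brightest on the middle arrays, at 1259.6 and 1463.7. It had 1.93 ± 0.23 in middle minus primordial (limma adjusted p = 0.000188) and -1.63 ± 0.23 in last minus middle (adjusted p = 0.00158). Another 4 genes, among them the troponin genes TNNC1, TNNT2 and TNNI2, had a signal of 16 or less on every array. How far probes of 1 actin or tropomyosin also bind transcripts of another was not tested.

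Of 9 tested transcription factors and ligands that act on smooth muscle genes 2 were higher in last minus middle (22.2%, against 8.8% of all genes) and the rest were not called, with a median of 0.48. KLF4, which represses smooth muscle genes in mouse vessels, was higher by 4.21 ± 0.23 (limma adjusted p = 9.46e-06) and GATA6 by 1.11 ± 0.19 (adjusted p = 0.00439). KLF4 had 10316.4 and 8344.9 on the arrays titled primordial, 369.3 and 359.2 on those titled middle, and 5631 and 8712.7 on those titled last. It was thus dimmest on the middle arrays, and the other stages overlapped. The part of KLF4 in the differences of the contractile genes was not tested. TCF21, a factor of mesenchymal cells, was higher in last minus primordial by 2.76 ± 0.29, while TGFB1, a growth factor that induces ACTA2 in fibroblasts, and SMAD3, which transmits its signal, were lower, at -2.57 ± 0.33 and -1.74 ± 0.24. MYOCD, myocardin, the coactivator of smooth muscle genes, looked at after its values were seen, had 79.4 to 125.1 on all arrays, and its last minus middle difference was -0.03 ± 0.34 (adjusted p = 0.963).

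**Figure D4:**
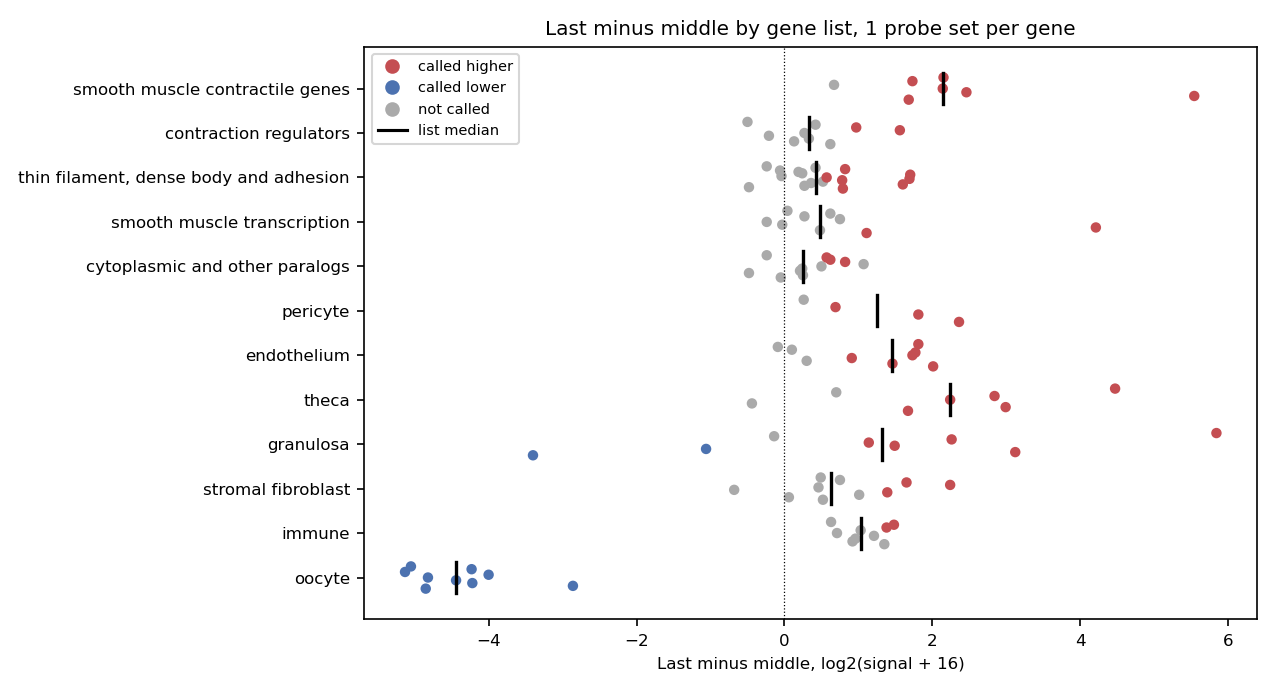
Last minus middle differences in log2(signal + 16), 1 tested probe set per gene, by gene list. Points are genes, red called higher, blue called lower and grey not called, and black bars are list medians. The contractile genes have a median of 2.14 (1.94 without DES), the theca list 2.24, the endothelial list 1.46, the granulosa list 1.32 and the regulators of contraction 0.33. The ACTG2 point, at 5.54, is of a probe set that is its brightest only through the last arrays. The other ACTG2 probe set has 0.33.

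Summed signals of theca, endothelial, pericyte and granulosa markers were also highest on the last arrays. The summed signal of the 7 contractile genes, at the brightest probe set of each, was 4268 to 5164 on the arrays titled primordial, 7573 to 8952 on the middle arrays and 30611 to 31315 on the last arrays. Most of it was ACTA2 alone, with 2823.3 to 3658.7, 5535.6 to 6175.2 and 18296.7 to 19322.6. ACTG2 and DES entered this sum by probe sets that were their brightest only through the last arrays. The summed signal of 7 theca genes was 6180 to 6781, 3766 to 5225 and 19194 to 22669 in the same order of stages. Most of it on the arrays titled primordial was CYP11A1, with 4673.4 and 4310.7. In middle minus primordial 3 of the 7 were called higher and 1, CYP11A1, lower (42.9% and 14.3%, against 22.9% and 22.5% of all genes). The summed signal of 11 endothelial genes was 2393 to 2531, 2017 to 2453 and 4330 to 4984, and that of 5 pericyte genes 3544 to 3647, 3689 to 4114 and 5669 to 6411. That of 12 granulosa genes was 40740 to 53887, 13559 to 19591 and 59490 to 65634. In each of these lists the last arrays lay above all others. Their part in the differences of the contractile genes was not tested.

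Against 8.8% of all genes called higher in last minus middle, 5 of 7 theca genes (71.4%) were, and the rest were not called. INSL3, a peptide hormone of theca cells, was higher by 2.24 ± 0.29, and CYP17A1 by 2.99 ± 0.40. Of 9 endothelial genes 6 (66.7%) were higher, with CDH5, the cadherin of endothelial junctions, at 2.01 ± 0.31, PECAM1 at 1.77 ± 0.23 and VWF at 1.81 ± 0.31; 3 were called without middle replicate 1. Of 4 pericyte genes 3 (75%) were higher, with ANGPT1 at 2.36 ± 0.27, MCAM at 1.81 ± 0.33 and the receptor PDGFRB at 0.69 ± 0.19; RGS5, a marker of pericytes, had 0.26 ± 0.20 and was not called (limma adjusted p = 0.403). Of the pericyte genes 1 was called without middle replicate 2. Of 8 granulosa genes 5 were higher (62.5%) and 2 lower (25%, against 7.23% of all genes), with a median of 1.32. NR5A2, a nuclear receptor of steroid-making cells, was higher by 5.84 ± 0.24 and the aromatase gene CYP19A3 by 3.12 ± 0.18, while AMH, the anti-Müllerian hormone, was lower, at -3.40 ± 0.31. In last minus primordial, against 17.2% of all genes, 85.7% of theca, 66.7% of endothelial and 75% of pericyte genes were called higher. Of the 8 granulosa genes 3 were higher (37.5%) and 2 lower (25%, against 15.8%), with a median of 0.08. CYP11A1 of the theca list and PECAM1 had -1.36 ± 0.50 and -0.21 ± 0.23 there and were not called.

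The summed signal of 10 stromal fibroblast genes was 1177 to 1296 on the arrays titled primordial, 15281 to 23787 on the middle arrays and 20337 to 22694 on the last arrays, so its last and middle arrays overlapped. In middle minus primordial 7 of the 10 were called higher (70%, against 22.9% of all genes), in the comparison in which ACTA2, CNN1 and TAGLN were also higher and Ssc.10316.1.S1_at of ACTG2 was lower. In last minus middle 3 were called higher (30%, against 8.8%), or 1 without middle replicate 2, and in last minus primordial 9 (90%, against 17.2%). The part of these genes in the differences of the contractile genes was not tested. LUM, the proteoglycan lumican, was higher in last minus middle by 2.24 ± 0.42, from last arrays at 3079.1 and 1043.5. Of 9 oocyte genes all 9 were lower in last minus middle (7.23% of all genes were), with a median of -4.44. None of the theca, pericyte, endothelial, stromal, granulosa, oocyte or immune genes on the array had a signal of 16 or less on all 6 arrays.

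**Figure D5:**
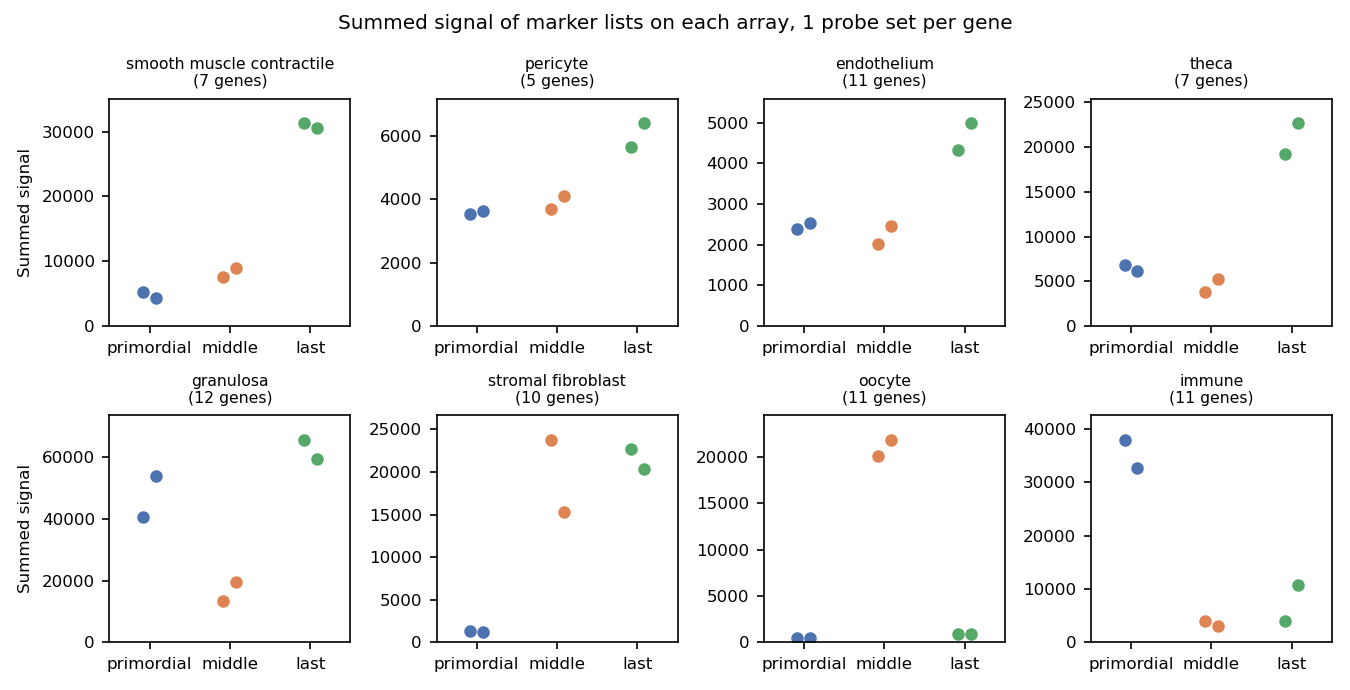
Summed signal of marker lists on each array (linear axes from 0), taking the brightest probe set of each gene without a filter. Points are arrays, 2 per stage. The contractile, pericyte, endothelial, theca and granulosa sums are highest on the last arrays, the oocyte sum on the middle arrays and the immune sum on the arrays titled primordial.

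Control transcripts gave a measure of RNA quality, the log2 excess of 3′ over 5′ signal. For the actin control it was 3.37 ± 0.24 (SD, n = 2) on the arrays titled primordial, 4.56 ± 0.53 on the middle arrays and 3.72 ± 0.23 on the last arrays. For the GAPDH control it was 3.05 ± 0.52, 3.03 ± 0.35 and 1.88 ± 0.02, and for EF1A 0.84 ± 0.24, 1.10 ± 0.33 and 0.76 ± 0.09. The GAPDH excess was lowest on the last arrays, where the contractile genes were brightest. Its part in their differences was not tested.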

How the data were processed

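RNA of 6 porcine follicle samples was measured on single-channel Affymetrix arrays. Per the labels' protocols, Trizol-extracted RNA was made into biotinylated cRNA. Per the submitters' processing notes, the signals were made with GCOS, of which no version is stated. The deposited table holds 1 linear intensity per probe set and array. The authors' arrays share a scale: trimmed by 2% at each end, every array has a mean of 500.1. Samples were grouped by title.

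Of 24123 probe sets 124 controls were left out. The annotation, which can be old, gave 1 symbol for 10069, several for 198 and none for 13732; all 7 measured genes matched the RefSeq gene table by identifier. Values were taken as log2(signal + 16), the dimmest 40% of probe sets removed (14399 left, 5432 genes), and limma 3.58.1 in R 4.3.3 was fitted to all 6 arrays with an intensity trend (3 residual and 6.33 prior degrees of freedom), two-sided. The fit was checked on simulated data. Lists used the brightest tested probe set per gene, and examples are among the 6 genes with the smallest p. For ACTG2 the last arrays decided which probe set was brightest. Members, lists and tests were chosen with earlier results of these data known. Alternatives changed scaling, pseudocount, filter, trend, block, arrays fitted and single arrays, and counts without DES were added after seeing the data. Replicate numbers were not taken as a pairing. Deviations of same-numbered arrays correlated at 0.059, -0.048 and 0.032 across probe sets, which cannot show if these arrays share animals. Tables and figures were made in Python 3.11.15 (matplotlib 3.10.9, numpy 2.4.6, pandas 2.3.3).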

Additional observations from a re-analysis of the deposited data

How the results depend on the processing

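Of 522 refits of a contractile probe set under an alternative, 463 kept direction and side of the threshold, 44 lost a call, 2 gained one and 13 changed sign, the cause of which was not tested. The 15 alternatives left unchanged the last minus middle calls of ACTG2 (Ssc.10316.1.S1_at), ACTA2, CNN1, TAGLN and both TPM2 probe sets ending in _a_at, 6 of 9 calls in that comparison, and 7 of 8 in last minus primordial, all but DES. In middle minus primordial 2 of 7 calls were kept throughout, ACTG2 and TAGLN. The number of the 10 tested probe sets called in middle minus primordial, 6, became 2 with each array centred on its median. All sign changes were of uncalled differences. With centring, Ssc.6145.1.A1_at of ACTG2 was -0.04 and Ssc.24.1.S1_at of DES -0.21 in middle minus primordial, and TPM2 was -0.04 (Ssc.20571.2.S1_at) and -0.09 (Ssc.9236.1.A1_at) in last minus primordial. With quantile normalization these were -0.16 for DES, and -0.01 and -0.09 for TPM2. Leaving out 1 array at a time, 4 differences took both signs: -0.57 to 0.97 for Ssc.24.1.S1_at of DES in middle minus primordial, and in last minus primordial -0.01 to 0.39 for Ssc.20571.2.S1_at and -0.10 to 0.37 for Ssc.9236.1.A1_at of TPM2, and -1.16 to 0.25 for Ssc.13296.1.A1_at of DES.

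Over all probe sets, the median difference was 0.22, -0.07 and 0.14 for middle minus primordial, last minus middle and last minus primordial as deposited, -0.20, 0.12 and -0.09 with centring and 0.04, 0.01 and 0.04 with quantile normalization. Of all calls 62.7%, 42.3% and 59.7% were higher as deposited, 36.6%, 62.9% and 39.0% with centring and 53.2%, 48.4% and 52.3% with quantile normalization. Leaving out 1 array at a time, calls over all probe sets numbered 4356 to 7189 (6821 with all arrays) in middle minus primordial, 727 to 2172 (2481) in last minus middle, 2730 to 4297 (4786) in last minus primordial and 4952 to 7354 (7242) for any stage. The lowest counts were without middle replicate 1 in the first 2 comparisons (727 in last minus middle, and 1440 without middle replicate 2) and without primordial replicate 2 in the third (2900 without primordial replicate 1). A replicate block, which the titles' numbers do not justify as a pairing, ended the last minus middle calls of DES (2.14, adjusted p = 0.0575) and of TPM2 on Ssc.9236.1.A1_at (-1.04, 0.0606) and Ssc.20571.2.S1_at (1.56, 0.0611). Dim signals, as for DES and Ssc.20571.2.S1_at, limit what can be said of those probe sets.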
